A study of Mus musculus with 31 samples.

Results

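Expression of 44 genes of the cell cycle and of DNA replication was followed across 6 Etv2 genotypes in mouse yolk sacs at embryonic day 8.5 (E8.5). The genes were chosen by symbol and by role, without a threshold on any value, and all 44 were among the 18477 genes of the deposited table. They were 16 genes of S phase (licensing of origins, the replicative helicase, the polymerase alpha primase, and nucleotide supply), 20 genes of G2 and mitosis, and 8 genes of G1 and S phase entry (cyclins D and E, and E2F factors). Etv2 is an Ets transcription factor needed for the blood and endothelial lineages. The Etv2 Δ allele lacks coding exons and is null, and the Etv2 enhΔ allele lacks an upstream enhancer. Both are germline alleles, carried by every cell of the embryo, on a mixed strain. Single yolk sacs came from 5 Etv2 Δ/Δ, 5 Etv2 enhΔ/Δ, and 5 Etv2 enhΔ/enhΔ embryos, and from 6 embryos with the Etv2 +/Δ genotype, 4 with Etv2 +/enhΔ, and 6 of Etv2 +/+, of both labelled sexes, matched by somites and obtained from matings among Etv2 +/enhΔ and Etv2 +/Δ mice.

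Cells enter S phase when cyclin D and cyclin E kinases inactivate the Rb family and free E2F factors, which then drive the genes that license and fire replication origins and that supply nucleotides. The genes of G2 and mitosis are switched on later by B-Myb and FoxM1 with the MuvB complex, which binds the cell cycle genes homology region (CHR) in their promoters. Primitive erythroid cells of the yolk sac divide rapidly while they mature, and endothelial, mesodermal, and visceral endodermal cells of the same organ also cycle.

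For 33 of the 44 members, 1 or more promoters matched the RefSeq table of mouse promoters (GRCm38.p6) by symbol, from 250 bases before to 50 bases after the start of each gene, and a member with several counts once if any holds the motif. They were searched on both strands for an E2F motif (TTTCCCGC, TTTGGCGC, TTTCGCGC, or TTTGCCGC, some of which can overlap on opposite strands), the CHR (TTTGAA or TTCGAA, the second being its own reverse complement), and the CCAAT box. An E2F motif occurred in 6 of 13 S phase promoters and in 1 of 16 G2 and mitosis promoters, against 2.605% of all 27025 promoters of that table. A CHR occurred in 3 of 13 S phase promoters and 13 of 16 G2 and mitosis promoters, against 21.7% of all promoters, and CCAAT in 11 of 13 and 15 of 16, against 41.1%. From each class, 3 S phase promoters with an E2F motif and 3 mitotic promoters with a CHR are shown, 5′ to 3′, as the 200 bases before the start site, with the motif of the class in capitals on whichever strand it lies, because these classes are the ones set against each other.
Cdc6: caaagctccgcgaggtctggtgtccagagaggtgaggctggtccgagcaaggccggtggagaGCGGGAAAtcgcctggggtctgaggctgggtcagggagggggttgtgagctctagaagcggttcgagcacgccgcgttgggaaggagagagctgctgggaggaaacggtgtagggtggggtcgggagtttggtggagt
Mcm6: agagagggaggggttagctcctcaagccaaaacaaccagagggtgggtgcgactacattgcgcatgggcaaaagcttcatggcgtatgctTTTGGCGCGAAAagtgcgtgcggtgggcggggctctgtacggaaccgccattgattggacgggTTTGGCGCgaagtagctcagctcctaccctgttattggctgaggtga
Pola1: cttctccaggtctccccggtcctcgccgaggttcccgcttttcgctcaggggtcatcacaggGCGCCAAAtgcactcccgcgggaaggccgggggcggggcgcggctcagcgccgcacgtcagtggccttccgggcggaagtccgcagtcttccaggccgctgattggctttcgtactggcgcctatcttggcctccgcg
Mki67: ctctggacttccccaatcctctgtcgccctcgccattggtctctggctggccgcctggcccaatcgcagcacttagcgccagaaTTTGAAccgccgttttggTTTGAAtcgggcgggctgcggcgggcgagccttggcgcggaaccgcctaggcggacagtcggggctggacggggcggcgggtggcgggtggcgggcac
Cdk1: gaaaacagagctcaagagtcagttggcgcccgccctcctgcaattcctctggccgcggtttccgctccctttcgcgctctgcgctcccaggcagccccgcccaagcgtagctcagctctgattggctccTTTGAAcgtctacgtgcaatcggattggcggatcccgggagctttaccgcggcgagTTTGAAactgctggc
Cdc20: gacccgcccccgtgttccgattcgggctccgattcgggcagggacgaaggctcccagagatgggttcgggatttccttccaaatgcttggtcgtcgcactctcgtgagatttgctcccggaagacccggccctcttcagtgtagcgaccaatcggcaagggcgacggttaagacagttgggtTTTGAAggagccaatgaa
The windows lie at chr11:98907951-98908150, plus strand (Cdc6), chr1:128359706-128359905, minus strand (Mcm6), chrX:93632156-93632355, minus strand (Pola1), chr7:135716380-135716579, minus strand (Mki67), chr10:69352913-69353112, minus strand (Cdk1), and chr4:118437344-118437543, minus strand (Cdc20). The Cdc6 match begins 138 bases before the start site, those of Mcm6 at 110, 106 (overlapping the first on the other strand), and 47 bases, and that of Pola1 at 138 bases. The CHR matches begin at 116 and 98 bases in Mki67, at 71 and 15 bases in Cdk1, and at 18 bases in Cdc20. A match is a run of letters and not a measured binding site. The members without an entry were Mcm4, Gins1, and Gins2, then Ccna2, Aurkb, Kif20a, and Tpx2, and Ccnd1, Ccnd2, Ccne2, and E2f4.

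The values used were log2(CPM + 1), where CPM is read counts scaled to a common library total, from 2671612 to 22396340 reads in genes per library. Library levels are given in CPM, and differences between genotypes are differences of log2(CPM + 1) fitted with limma over all 31 libraries, with labelled sex as a term. A gene passed the test at an adjusted p under 0.05 (Benjamini-Hochberg over 18477 genes, two-sided). Etv2 itself had 0 to 7 reads in each library without a Δ allele and 3 to 56 reads in each with one, so that its reads do not follow the labelled dose. Visceral endoderm markers summed to 34585 CPM or more in every library, and the visceral endoderm is the outer layer of the yolk sac. In 4 libraries labelled male (Etv2 +/Δ replicates 2 and 3, Etv2 Δ/Δ replicates 1 and 2) Xist and Y-linked reads went against the label. Etv2 Δ/Δ replicate 5, labelled female, held 639 CPM of Xist and 7.05 CPM of Y-linked reads. Other libraries labelled female held at most 0.867 CPM of Y-linked reads. The source of the Y-linked reads in that replicate was not tested. Reads of the pseudogene Ftl2-ps were high in 8 libraries (Etv2 +/+ replicates 2 to 6, Etv2 +/enhΔ replicates 2 to 4) and low in the other 23, whereas every library with a Δ allele was low. Erythroid markers summed to 1628 to 5736 CPM in Etv2 +/+, 470 to 2375 CPM in Etv2 enhΔ/Δ, and 7.88 to 70.3 CPM in Etv2 Δ/Δ.

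In Etv2 Δ/Δ yolk sacs, genes of replication and of S phase entry fell, and no mitotic member passed the test in the fit with labelled sex. Against Etv2 +/+, 6 of 16 S phase members fell (Cdc6, Gins1, Pola1, Rrm1, Mcm3, and Mcm6) and none rose, and 4 of 8 G1 and S entry members fell (E2f2, Ccne1, Ccnd1, and E2f4) and none rose. Of 20 G2 and mitosis members, 0 passed the test in either direction (limma), 3 had an unadjusted p under 0.05, and 0 passed with voom on recovered reads. This 0 depended on the settings, since Aurka passed as lower without the sex term and also with only genes of a mean log2 of at least 1. Over all 18477 genes, 7.69% fell and 5.6% rose in this comparison. The median difference was −0.30 for S phase members, −0.10 for G2 and mitosis members, and −0.43 for G1 and S entry members, against −0.01 for all genes. Of the members, 15 of 16, 14 of 20, and 7 of 8 had a difference below 0. In bulk yolk sac RNA, fewer cells of a type and less RNA per cell cannot be told apart. With Ftl2-ps state as a term, where 1 Etv2 +/+ library and every Etv2 Δ/Δ library share the low state, 2 S phase members (Cdc6, Mcm6) and 2 entry members (Ccne1, E2f4) passed, with class medians of −0.39, −0.04, and −0.52. Without the 4 libraries at odds with their labelled sex, 3 S phase members (Cdc6, Mcm3, Rrm1), 3 entry members (Ccne1, Ccnd1, E2f2), and 1 mitotic member (Mki67) passed.

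**Figure D1:**
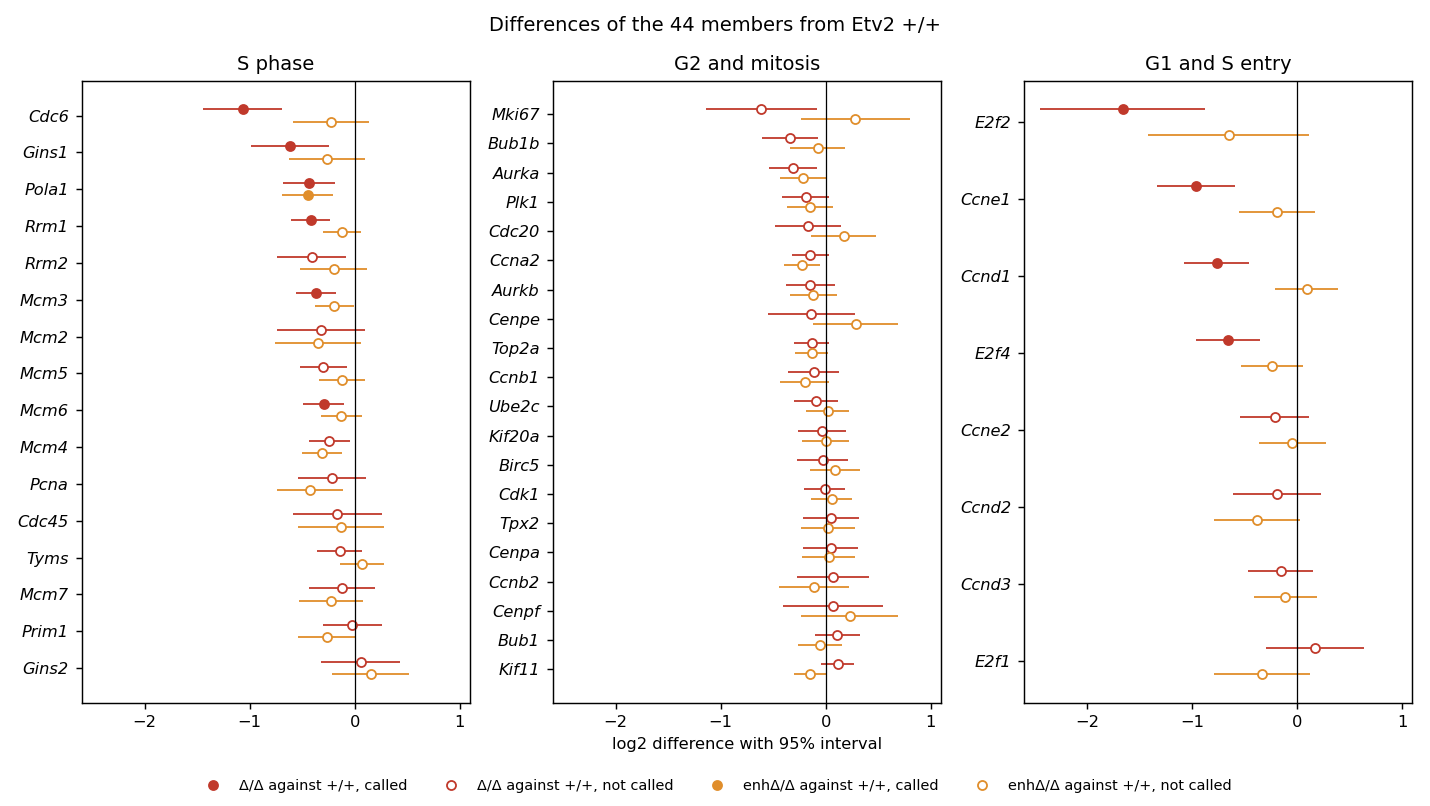
Log2 difference from Etv2 +/+ (horizontal axis, log2(CPM + 1) units) of each of the 44 members in Etv2 Δ/Δ (red) and Etv2 enhΔ/Δ (orange), with the 95% interval of the limma fit as a line and a filled point where the gene passed at an adjusted p under 0.05. Filled red points stand in the S phase panel (6) and the G1 and S entry panel (4) and in neither direction of the G2 and mitosis panel, and Pola1 holds the only filled orange point.

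The same classes were read library by library as the mean log2(CPM + 1) of their members, with no test. For S phase the Etv2 +/+ libraries held 6.72 to 6.88, the Etv2 enhΔ/Δ libraries 6.56, 6.57, 6.69, 6.43, and 6.63, and the Etv2 Δ/Δ libraries 6.40, 6.39, 6.33, 6.54, and 6.62. Neither mutant overlapped Etv2 +/+, although Etv2 +/Δ replicate 4 (6.57) and Etv2 enhΔ/enhΔ replicate 4 (6.61) fell inside both mutant ranges, and replicate 5 of each of those genotypes (both 6.67) fell inside the Etv2 enhΔ/Δ range. For G2 and mitosis the means were 7.34 to 7.52 in Etv2 +/+, 7.24, 7.43, 7.37, 7.40, and 7.26 in Etv2 Δ/Δ, and 7.44, 7.39, 7.42, 7.47, and 7.42 in Etv2 enhΔ/Δ, and both mutants overlapped Etv2 +/+. The Etv2 Δ/Δ libraries lay below the Etv2 +/enhΔ libraries, which held 7.45, 7.52, 7.50, and 7.47. For G1 and S entry they were 5.59 to 5.77 in Etv2 +/+, 5.00, 4.97, 5.04, 5.15, and 5.37 in Etv2 Δ/Δ, and 5.32, 5.48, 5.41, 5.47, and 5.53 in Etv2 enhΔ/Δ. Replicate 5 of Etv2 Δ/Δ lay inside the Etv2 enhΔ/Δ range and the other 4 below it. The gap between the S phase and mitotic means also moved within genotypes: in Etv2 +/Δ it was −0.49 in replicate 3, whose mitochondrial share of reads was 24.6%, and −1.03 in replicate 4, whose share was 7.18%. The gap was −0.75 to −0.55 in Etv2 +/+, −1.04 to −0.73 in Etv2 enhΔ/Δ, and −1.04 to −0.64 in Etv2 Δ/Δ, with mitochondrial shares of 9.69% to 16.5%, 7.55% to 10.2%, and 8.10% to 18.2%. With the mitochondrial share as a term, an alternative chosen after seeing the data, the S phase median in Etv2 Δ/Δ was −0.28 and the same 6 S phase and 4 entry members passed, and 3 mitotic members (Mki67, Bub1b, and Aurka) passed as well.

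**Figure D2:**
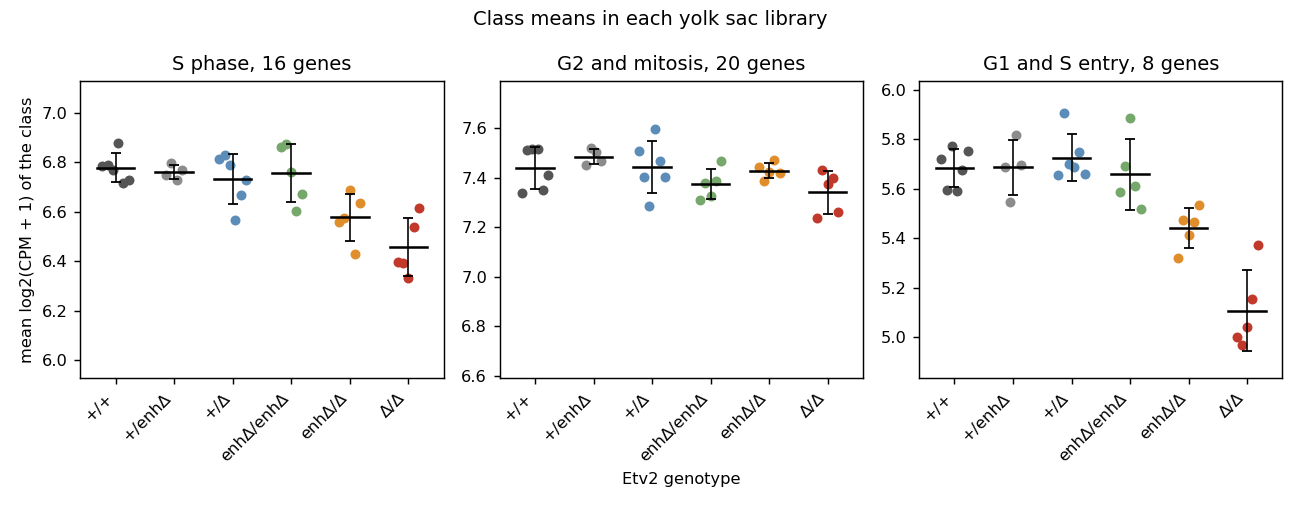
Mean log2(CPM + 1) of the S phase, G2 and mitosis, and G1 and S entry members (vertical axes, each spanning the same range of log2 units) in each library, by Etv2 genotype; each point is a library, the horizontal bar the mean and the error bar the SD. The S phase and entry means of Etv2 Δ/Δ lie below those of Etv2 +/+ (6.33 to 6.62 against 6.72 to 6.88, and 4.97 to 5.37 against 5.59 to 5.77), and the mitotic means of those genotypes overlap.

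Cdc6, which loads the helicase onto origins, fell most among the S phase members. Cdc6 (chr11:98769115-98785254, plus strand in mm9) stood at 42.1 to 56.3 CPM (median 52.5) in Etv2 +/+ and 39.0 to 59.5 CPM (median 49.2) in Etv2 +/Δ. In Etv2 enhΔ/Δ it stood at 44.1, 37.3, 49.8, 37.7, and 44.2 CPM, and in Etv2 Δ/Δ at 20.8, 18.2, 19.9, 35.2, and 23.8 CPM. Every Etv2 Δ/Δ library lay below every library of those 3 genotypes, with replicate 4 closest to them. The Etv2 Δ/Δ difference was −1.07 ± 0.18 (SE) from Etv2 +/+ (adjusted p = 9.32e-05, limma), −0.85 ± 0.19 (SE) from Etv2 enhΔ/Δ (adjusted p = 0.00377), and −1.03 ± 0.18 (SE) from Etv2 +/Δ (adjusted p = 9.55e-05). In Etv2 enhΔ/Δ against Etv2 +/+ it was −0.22 ± 0.18 (SE) (adjusted p = 0.705, limma). The Etv2 enhΔ/enhΔ libraries spread from 31.8 to 62.8 CPM and the Etv2 +/enhΔ libraries from 37.6 to 61.8 CPM. Its difference between the mutants did not pass without the libraries at odds with their labelled sex (adjusted p = 0.0639, limma), where 2 of the 5 Etv2 Δ/Δ libraries were left out.

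Of the helicase, Mcm3 and Mcm6 are subunits of the MCM ring and Gins1 is a subunit of the GINS complex that activates it. Mcm3 (chr1:20793055-20810359, minus strand) measured 138 to 168 CPM (median 159) in Etv2 +/+, 131, 145, 134, 124, and 142 CPM in Etv2 enhΔ/Δ, and 113, 112, 112, 122, and 137 CPM in Etv2 Δ/Δ. The Etv2 Δ/Δ libraries lay just below Etv2 +/+ and overlapped Etv2 enhΔ/Δ. Mcm3 fell in Etv2 Δ/Δ, with a difference of −0.37 ± 0.09 (SE) from Etv2 +/+ (adjusted p = 0.00673, limma) and −0.38 ± 0.09 (SE) from Etv2 +/Δ (adjusted p = 0.00330). Mcm6 had a difference of −0.30 (adjusted p = 0.0384, limma) and overlapped Etv2 +/+. Without any 1 of Etv2 +/+ replicates 1, 4, 5, and 6 or Etv2 Δ/Δ replicates 1 and 5 it no longer passed. Gins1 measured 24.6 to 33.9 CPM (median 29.3) in Etv2 +/+ and 20.4, 19.0, 20.7, 22.9, and 13.8 CPM in Etv2 Δ/Δ, without overlap. Its difference was −0.62 (adjusted p = 0.0223, limma), which did not pass without Etv2 Δ/Δ replicate 5, the lowest library. The other MCM members, Mcm2, Mcm4, Mcm5, and Mcm7, had differences below 0 that did not pass against Etv2 +/+, and Mcm5 fell against Etv2 +/Δ (−0.33, adjusted p = 0.0346, limma). Gins2, another GINS subunit, had the highest S phase difference, 0.06 ± 0.18 (SE), with a 95% interval of −0.32 to 0.43. It stood at 67.9 to 116 CPM (median 94.3) in Etv2 +/+ and 82.0, 107, 108, 72.1, and 86.2 CPM in Etv2 Δ/Δ, within the same range. Exons of Gins2 overlap those of Gse1 on the other strand, and the strand setting of the read counting is not given in the sources used here.

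Nucleotide supply and priming were represented by Rrm1, Rrm2, Tyms, Pola1, and Prim1. Rrm1, the large subunit of ribonucleotide reductase (chr7:109590209-109618285, plus strand), measured 288 to 342 CPM (median 320.4) in Etv2 +/+, 286, 309, 311, 238, and 296 CPM in Etv2 enhΔ/Δ, and 233, 228, 247, 253, and 198 CPM in Etv2 Δ/Δ. The Etv2 Δ/Δ libraries were all below Etv2 +/+ and all below Etv2 +/Δ, which held 258 to 345 CPM (median 266). Rrm1 fell, with a difference of −0.42 ± 0.09 (SE) from Etv2 +/+ (adjusted p = 0.00172, limma), and its difference from Etv2 +/Δ was −0.26 (adjusted p = 0.0510). The small subunit Rrm2 passed only against Etv2 +/Δ (−0.47, adjusted p = 0.0427, limma), with 152, 159.8, 103, 156, and 174 CPM in Etv2 Δ/Δ, of which replicate 3 lay below the Etv2 +/Δ range of 130.5 to 275 CPM and the other 4 inside it. Mcm5 and Rrm2 are named here as the S phase members that passed against Etv2 +/Δ and not against Etv2 +/+.

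Pola1, the catalytic subunit of DNA polymerase alpha, was the 1 member that passed in Etv2 enhΔ/Δ against Etv2 +/+, where 0.99% of all genes fell and 0.336% rose. Pola1 (chrX:90550106-90877494, minus strand) measured 101 to 152 CPM (median 116) in Etv2 +/+, 96.1, 87.1, 79.97, 74.0, and 99.7 CPM in Etv2 enhΔ/Δ, and 80.1, 71.3, 105, 86.1, and 99.3 CPM in Etv2 Δ/Δ. Etv2 enhΔ/Δ lay below every Etv2 +/+ library, and Etv2 Δ/Δ replicate 3 alone among its group reached the Etv2 +/+ range. Medians were also below Etv2 +/+ in Etv2 +/enhΔ (105 CPM), Etv2 +/Δ (105 CPM), and Etv2 enhΔ/enhΔ (96.4 CPM), which all overlapped Etv2 +/+. The difference from Etv2 +/+ was −0.45 ± 0.12 (SE) in Etv2 enhΔ/Δ (adjusted p = 0.0489, limma) and −0.44 ± 0.12 (SE) in Etv2 Δ/Δ (adjusted p = 0.0135), and between the mutants it was 0.01 (95% interval −0.24 to 0.26). Against Etv2 +/Δ, Pola1 passed neither in Etv2 Δ/Δ (−0.27, adjusted p = 0.141, limma) nor in Etv2 enhΔ/Δ (−0.28, adjusted p = 0.291). The call in Etv2 enhΔ/Δ was lost without any 1 of 21 of the 31 libraries and with voom, and that in Etv2 Δ/Δ was lost without Etv2 +/+ replicate 2, the highest library. The Etv2 Δ/Δ call was also lost with only the 2 groups compared, with Ftl2-ps state as a term, and without the libraries at odds with their labelled sex. The other 43 members did not pass in Etv2 enhΔ/Δ against Etv2 +/+ (5 of 44 had an unadjusted p under 0.05, and 0 passed with voom), with class medians of −0.21 for S phase, −0.03 for G2 and mitosis, and −0.21 for G1 and S entry. Against Etv2 +/Δ, 0 of 44 passed in Etv2 enhΔ/Δ (limma; 12 with an unadjusted p under 0.05; 0 with voom), where 1.24% of all genes did.

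Among the entry genes, E2f2 had the largest fall of the 44 members. E2f2, an E2F activator used by erythroid cells of the mouse (chr4:135728309-135751972, plus strand), was scarce throughout. It measured 4.33 to 10.4 CPM (median 7.10) in Etv2 +/+, 3.45, 3.11, 4.83, 4.25, and 4.20 CPM in Etv2 enhΔ/Δ, and 1.89, 1.94, 2.09, 0.823, and 0.609 CPM in Etv2 Δ/Δ, so that the 3 groups stood in the order of labelled Etv2 dose at the median, and only Etv2 Δ/Δ was clear of the others. The difference of E2f2 was −1.66 ± 0.39 (SE) in Etv2 Δ/Δ (adjusted p = 0.00318, limma) and −0.65 ± 0.38 (SE) in Etv2 enhΔ/Δ (adjusted p = 0.526). On this scale the change of so low a gene is understated. The Etv2 +/Δ libraries ran from 1.96 to 11.95 CPM, and replicate 1, the lowest, lay inside the Etv2 Δ/Δ range. Over all 6 genotypes the medians did not follow the labelled dose. Those of Etv2 +/Δ (9.10 CPM) and Etv2 +/enhΔ (7.79 CPM) were above Etv2 +/+, and that of Etv2 enhΔ/enhΔ was 6.10 CPM.

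Ccne1, cyclin E1, the partner of Cdk2 at S phase entry (chr7:38883003-38892553, minus strand), measured 52.1 to 70.0 CPM (median 60.9) in Etv2 +/+ and 56.0 to 83.0 CPM (median 77.8) in Etv2 +/Δ. It measured 42.5, 55.4, 59.8, 56.1, and 53.0 CPM in Etv2 enhΔ/Δ and 22.7, 24.3, 23.5, 35.5, and 56.4 CPM in Etv2 Δ/Δ. Replicates 1 to 4 of Etv2 Δ/Δ were below every other library, and replicate 5 was inside the Etv2 +/+ range. Ccne1 fell in Etv2 Δ/Δ, with differences of −0.96 ± 0.18 (SE) from Etv2 +/+ (adjusted p = 3.33e-04, limma), −0.77 from Etv2 enhΔ/Δ (adjusted p = 0.00844), and −1.19 from Etv2 +/Δ (adjusted p = 1.13e-05).

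Ccnd1, cyclin D1, an activator of Cdk4 and Cdk6 (chr7:152115836-152125774, minus strand), separated the mutants. It stood at 44.8 to 63.7 CPM (median 50.2) in Etv2 +/+, 62.7, 49.1, 42.3, 53.0, and 71.7 CPM in Etv2 enhΔ/Δ, and 29.5, 31.9, 29.4, 33.1, and 25.7 CPM in Etv2 Δ/Δ. All Etv2 Δ/Δ libraries lay below the other 26 libraries of the series, and Etv2 enhΔ/Δ lay around Etv2 +/+. The difference was −0.77 ± 0.15 (SE) in Etv2 Δ/Δ against Etv2 +/+ (adjusted p = 6.18e-04, limma), −0.86 ± 0.15 (SE) against Etv2 enhΔ/Δ (adjusted p = 3.79e-04), and 0.09 ± 0.15 (SE) in Etv2 enhΔ/Δ against Etv2 +/+ (adjusted p = 0.896). Exons of Ccnd1 overlap those of Oraov1 on the other strand.

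E2f4, an E2F of repressor complexes that fetal erythropoiesis in the mouse requires (chr8:107821563-107829269, plus strand), measured 75.8 to 96.6 CPM (median 91.2) in Etv2 +/+, 70.3, 74.1, 90.2, 72.0, and 67.7 CPM in Etv2 enhΔ/Δ, and 40.8, 47.4, 49.5, 66.8, and 79.1 CPM in Etv2 Δ/Δ. Replicate 5 of Etv2 Δ/Δ again reached the Etv2 +/+ range. The difference in Etv2 Δ/Δ was −0.65 ± 0.15 (SE) against Etv2 +/+ (adjusted p = 0.00271, limma) and −0.80 against Etv2 +/Δ (adjusted p = 2.25e-04). E2f1, an activator E2F, had the highest difference of the class, 0.17 ± 0.23 (SE) (95% interval −0.30 to 0.64). It stood at 9.39 to 19.0 CPM (median 16.8) in Etv2 +/+ and 13.98, 15.97, 18.0, 11.9, and 22.0 CPM in Etv2 Δ/Δ, and those ranges overlapped. The other D and E cyclins (Ccnd2, Ccnd3, and Ccne2) had differences of −0.21 to −0.15, and none passed.

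**Figure D3:**
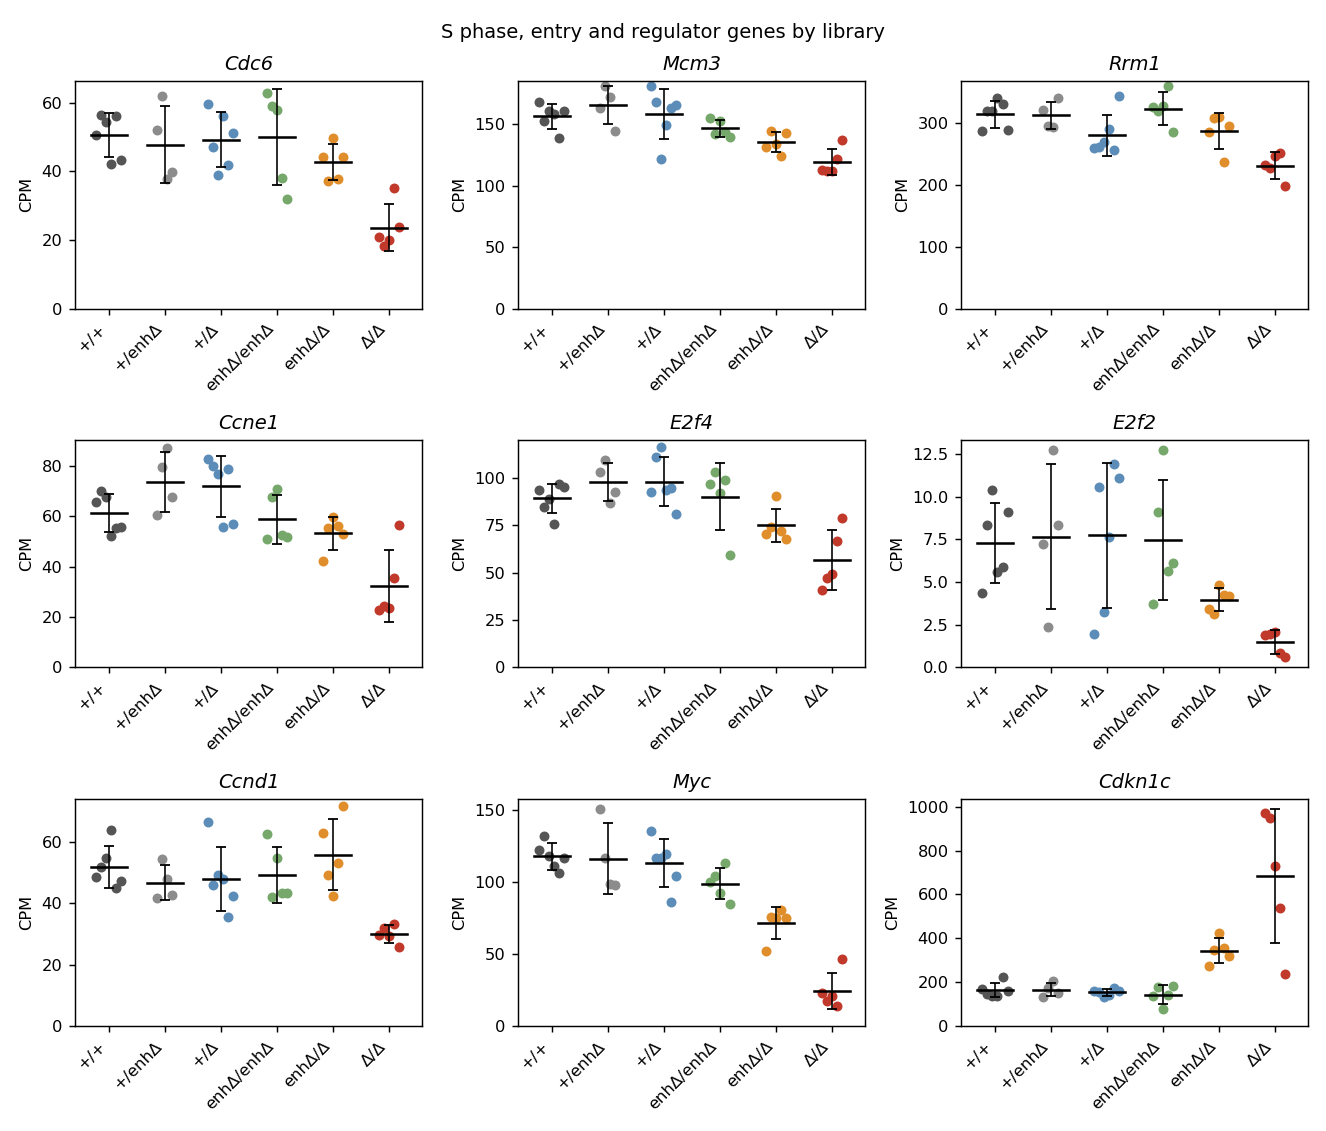
CPM (vertical axes, from 0) of 3 S phase members, 4 entry members, and the regulators Myc and Cdkn1c in each library, by Etv2 genotype; points are libraries, horizontal bars means, and error bars SD. Cdc6 lies at 18.2 to 35.2 CPM in Etv2 Δ/Δ against 42.1 to 56.3 CPM in Etv2 +/+, and Cdkn1c at 239 to 972 CPM against 137 to 222 CPM.

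In the fit of all genes with genotype and labelled sex, no G2 and mitosis member passed against Etv2 +/+ in either mutant. Over all genes, 7.69% fell and 5.6% rose in Etv2 Δ/Δ, and 0.99% fell and 0.336% rose in Etv2 enhΔ/Δ. With 20 members, a count of 0 is not far from these shares. In other settings, given above, Aurka, Mki67, or Bub1b passed as lower in Etv2 Δ/Δ. In Etv2 Δ/Δ the 20 differences from Etv2 +/+ ran from −0.61 (Mki67) to 0.11 (Kif11), and the 95% interval lay within 0.5 of 0 on either side for 15 of them. In Etv2 enhΔ/Δ they ran from −0.23 to 0.28, and 17 of 20 intervals lay within that bound. For comparison, 6 of 16 S phase intervals and 1 of 8 entry intervals lay within it in Etv2 Δ/Δ. These intervals do not show that a gene was the same in both groups.

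The F test over the 6 genotypes, which 12.1% of all genes passed, was passed by 11 members. They were Cdc6, Rrm1, Mcm3, and Pola1 of S phase, Ccne1, E2f4, Ccnd1, and E2f2 of entry, and Plk1, Aurka, and Mki67 of mitosis. Plk1, the polo kinase of mitotic entry (chr7:129302951-129313389, plus strand), measured 79.8 to 115 CPM (median 101) in Etv2 +/+ and 130.3, 121, 103, and 119.5 CPM in Etv2 +/enhΔ. It measured 141, 110.1, 128, 102, and 114 CPM in Etv2 enhΔ/enhΔ, 80.8, 89.3, 94.5, 89.6, and 89.5 CPM in Etv2 enhΔ/Δ, and 78.2, 84.9, 81.7, 85.9, and 99.7 CPM in Etv2 Δ/Δ. The mutants stood at the lower edge of Etv2 +/+, and Etv2 +/enhΔ and Etv2 enhΔ/enhΔ stood in and above its upper part. Plk1 was associated with genotype (adjusted p = 0.00765, limma F test), and its difference in Etv2 Δ/Δ was −0.19 ± 0.11 (SE) against Etv2 +/+ (adjusted p = 0.278) and −0.30 against Etv2 +/Δ (adjusted p = 0.0534).

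Aurka, the centrosomal Aurora kinase (chr2:172181690-172196035, minus strand), measured 81.3 to 122 CPM (median 96.9) in Etv2 +/+, 99.0, 124, 131, and 103 CPM in Etv2 +/enhΔ, 91.3, 76.1, 84.4, 90.4, and 77.3 CPM in Etv2 enhΔ/Δ, and 66.9, 78.0, 71.1, 93.4, and 83.8 CPM in Etv2 Δ/Δ. Etv2 Δ/Δ replicates 1 and 3 were the lowest of the 31 libraries, and both mutants overlapped Etv2 +/+. It was associated with genotype (adjusted p = 0.0103, limma F test), with a difference of −0.31 ± 0.11 (SE) in Etv2 Δ/Δ (adjusted p = 0.0566). Ccna2, cyclin A2, which acts in S phase and G2, measured 552 to 661 CPM (median 609) in Etv2 +/+, 506, 473, 563, 493, and 578 CPM in Etv2 enhΔ/Δ, and 529, 539.6, 489, 553, and 645 CPM in Etv2 Δ/Δ. It did not pass the F test (adjusted p = 0.0760, limma), and its difference was −0.23 ± 0.08 (SE) in Etv2 enhΔ/Δ and −0.15 ± 0.09 (SE) in Etv2 Δ/Δ. Exons of Ccna2 overlap those of Exosc9 on the other strand.

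Between the mutants, 5 members passed. With Etv2 enhΔ/Δ as the reference, Cdc6, Ccne1, Ccnd1, and Mki67 fell in Etv2 Δ/Δ and Kif11 rose, where 3.36% of all genes fell and 1.55% rose. Only 3 members passed without Etv2 enhΔ/Δ replicate 1, Etv2 enhΔ/Δ replicate 2, or Etv2 Δ/Δ replicate 1. Kif11, the kinesin that separates the spindle poles (chr19:37450893-37496349, plus strand), measured 314, 309, 292, 338, and 330.3 CPM in Etv2 enhΔ/Δ and 376, 354, 388, 405, and 385 CPM in Etv2 Δ/Δ, without overlap, and 318 to 387 CPM (median 350.5) in Etv2 +/+, which overlapped both. Its difference between the mutants was 0.26 ± 0.08 (SE) (adjusted p = 0.0456, limma), and it no longer passed without any 1 of 16 of the 31 libraries. The difference of Kif11 from Etv2 +/+ was 0.11 ± 0.08 (SE) in Etv2 Δ/Δ (adjusted p = 0.390, limma).

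Mki67, which encodes the Ki-67 protein of proliferating cells (chr7:142881471-142908062, minus strand), varied more between libraries than the other mitotic members named. It measured 384 to 618 CPM (median 488) in Etv2 +/+, 191 to 747 CPM (median 452) in Etv2 +/Δ, and 207, 314, 245, 330.3, and 316 CPM in Etv2 enhΔ/enhΔ. It measured 659.8, 590.3, 484, 782, and 521 CPM in Etv2 enhΔ/Δ and 284, 588, 391.9, 326, and 165 CPM in Etv2 Δ/Δ. Etv2 enhΔ/enhΔ lay wholly below Etv2 +/+, although its difference of −0.81 ± 0.25 (SE) did not pass (adjusted p = 0.464, limma), and Etv2 enhΔ/Δ was the highest genotype at the median. Mki67 fell in Etv2 Δ/Δ against Etv2 enhΔ/Δ, with a difference of −0.90 ± 0.26 (SE) (adjusted p = 0.0420, limma), which was lost without any 1 of Etv2 enhΔ/Δ replicates 1, 2, 4, and 5 and Etv2 Δ/Δ replicates 1, 4, and 5. Against Etv2 +/+ the difference was −0.61 ± 0.26 (SE) in Etv2 Δ/Δ (adjusted p = 0.123) and 0.28 ± 0.25 (SE) in Etv2 enhΔ/Δ (adjusted p = 0.751). The mitochondrial share of reads was 10.5% to 20.9% in Etv2 enhΔ/enhΔ and 7.55% to 10.2% in Etv2 enhΔ/Δ, and within Etv2 +/Δ the library with the largest share had the least Mki67 and the library with the smallest share the most. The part of this share in single libraries was not tested. The centromere genes Cenpe and Cenpf, named here after their values were seen, likewise had their highest median in Etv2 enhΔ/Δ and their lowest in Etv2 enhΔ/enhΔ. Cenpe measured 271, 241, 174, 229, and 192 CPM in Etv2 enhΔ/Δ and 77.9, 123, 115, 178, and 169 CPM in Etv2 enhΔ/enhΔ, with an overlap of 1 library on each side, and neither gene passed in any comparison.

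**Figure D4:**
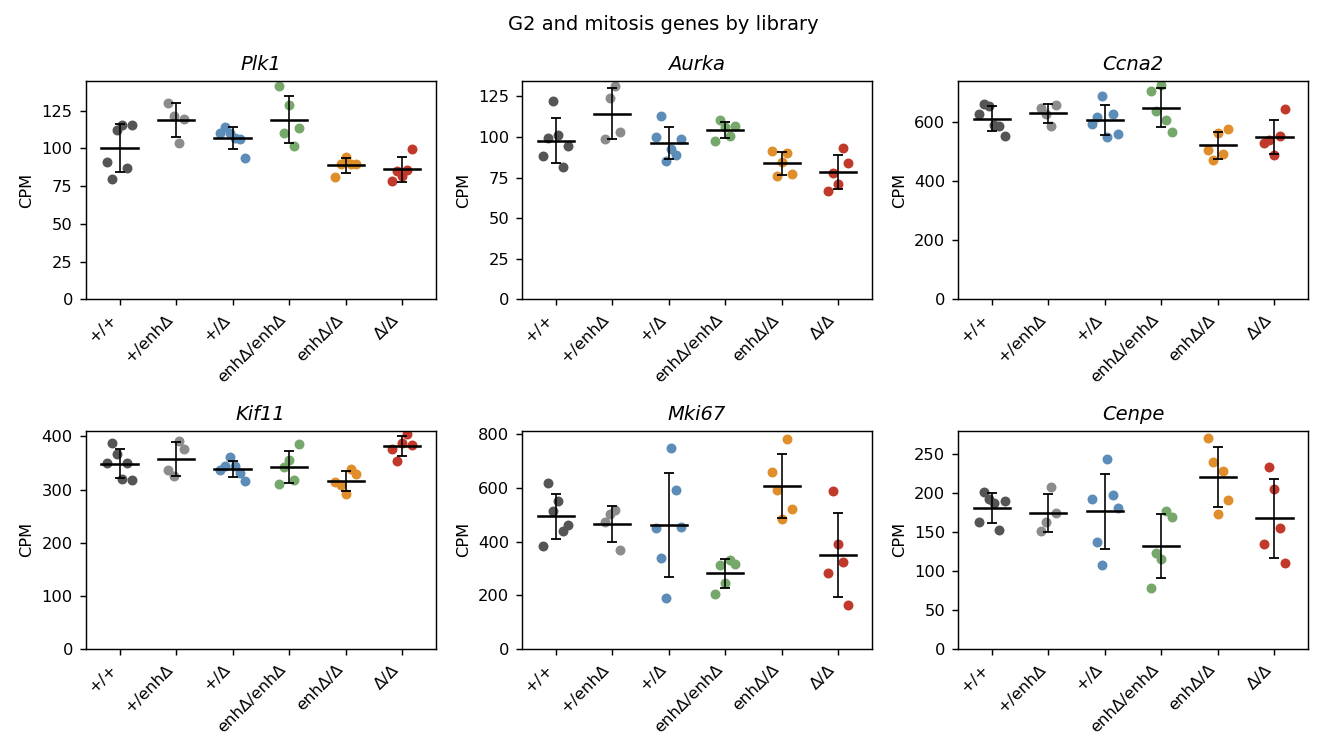
CPM (vertical axes, from 0) of 6 G2 and mitosis members in each library, by Etv2 genotype; points are libraries, horizontal bars means, and error bars SD. Plk1, Aurka, Ccna2, and Kif11 overlap between Etv2 +/+ and both mutants, whereas Mki67 and Cenpe spread widely within genotypes, from 191 to 747 CPM for Mki67 in Etv2 +/Δ.

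With Etv2 +/Δ, which also carries the Δ allele and shares the low Ftl2-ps state, in place of Etv2 +/+, 9 members fell in Etv2 Δ/Δ and none rose (Cdc6, Mcm3, Mcm5, Mcm6, and Rrm2 of S phase, and Ccnd1, Ccne1, E2f2, and E2f4 of entry), where 7.59% of all genes fell and 5.86% rose. Of 20 mitotic members, 0 passed (limma), 6 had an unadjusted p under 0.05, and 0 passed with voom. Mitotic members passed as lower in other settings, namely Plk1 without the sex term, Bub1b and Plk1 with only genes of a mean log2 of at least 1, Mki67 without the libraries at odds with their labelled sex, and Mki67, Bub1b, and Aurka with the mitochondrial share as a term. The class medians were −0.26 for S phase, −0.08 for G2 and mitosis, and −0.46 for G1 and S entry. Both comparisons use the same Etv2 Δ/Δ libraries. In the other genotypes no member passed (limma), with 0 of 44 in Etv2 enhΔ/enhΔ, in Etv2 +/Δ, and in Etv2 +/enhΔ against Etv2 +/+, where 0.0216%, 0.0271%, and 0% of all genes passed in either direction. At an unadjusted p under 0.05 there were 5, 1, and 3 members, and 0 passed with voom in each. S phase medians in these 3 comparisons were −0.02, −0.02, and 0.01.

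Other genes of the pathway were taken from 3 lists chosen by role. Of 45 other replication genes, 9 fell in Etv2 Δ/Δ against Etv2 +/+ and none rose, with a median of −0.22, where 7.69% of all genes fell and 5.6% rose. Orc2 and Orc1 are subunits of the origin recognition complex, and Dut is the dUTPase that keeps uracil out of DNA. Orc2 measured 70.4 to 114 CPM (median 102) in Etv2 +/+, 59.4, 70.7, 78.3, 61.2, and 67.0 CPM in Etv2 enhΔ/Δ, and 46.9, 44.6, 48.4, 54.9, and 82.7 CPM in Etv2 Δ/Δ, of which replicate 5 reached the Etv2 +/+ range. Its difference in Etv2 Δ/Δ was −0.81 ± 0.17 (SE) (adjusted p = 0.00154, limma), and Orc2 also fell in Etv2 enhΔ/Δ against Etv2 +/Δ (−0.70, adjusted p = 0.0257). Dut fell, with a difference of −0.59 ± 0.14 (SE) (adjusted p = 0.00292, limma), from 198 to 223 CPM (median 209.6) in Etv2 +/+ to 121, 149.9, 128, 160.2, and 134 CPM in Etv2 Δ/Δ, without overlap. Orc1 had a difference of −0.55 ± 0.16 (SE) (adjusted p = 0.0197, limma), lost without Etv2 +/+ replicate 2, Etv2 Δ/Δ replicate 1, or Etv2 Δ/Δ replicate 3.

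Of 49 other genes of G2 and mitosis, 6 fell in Etv2 Δ/Δ against Etv2 +/+ and none rose, with a median of −0.08, a share not far from the 7.69% of all genes that fell. Cdc25b, a phosphatase that activates Cdk1, measured 15.3 to 30.7 CPM (median 22.7) in Etv2 +/+, 8.64, 5.74, 7.10, 10.4, and 9.44 CPM in Etv2 enhΔ/Δ, and 7.18, 5.94, 9.26, 4.42, and 14.8 CPM in Etv2 Δ/Δ, and both mutants lay below every Etv2 +/+ library. Cdc25b fell in both, with differences of −1.34 ± 0.27 (SE) in Etv2 Δ/Δ (adjusted p = 5.86e-04, limma) and −1.29 ± 0.26 (SE) in Etv2 enhΔ/Δ (adjusted p = 0.00373). The Etv2 +/Δ libraries, at 8.48 to 17.1 CPM (median 11.7), were themselves low, and the difference of Etv2 Δ/Δ from them was −0.58 (adjusted p = 0.145). Cdc25b did not pass in Etv2 enhΔ/Δ against Etv2 +/Δ either. Its call in Etv2 enhΔ/Δ against Etv2 +/+ was lost with Ftl2-ps state as a term. Medians were also below Etv2 +/+ in Etv2 +/enhΔ (14.2 CPM) and Etv2 enhΔ/enhΔ (14.04 CPM), which both overlapped Etv2 +/+. Espl1, the separase that cuts cohesin, fell in Etv2 Δ/Δ, with a difference of −0.53 ± 0.14 (SE) (adjusted p = 0.00702, limma), from 51.1 to 82.0 CPM (median 54.9) to 38.9, 40.4, 42.8, 44.5, and 48.1 CPM. Bub3, of the spindle checkpoint, had a difference of −0.35 ± 0.10 (SE) (adjusted p = 0.0149, limma), lost without Etv2 +/+ replicate 2. The calls of Espl1 and Bub3 were both lost with only the 2 groups compared and with Ftl2-ps state as a term. Both were also lost without the libraries at odds with their labelled sex.

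Of 24 regulators (cyclin-dependent kinases, their inhibitors and phosphatases, the Rb family, other E2F genes, and Myc), 6 fell and 2 rose in Etv2 Δ/Δ against Etv2 +/+, where 7.69% of all genes fell and 5.6% rose. Myc, a transcription factor that promotes growth and S phase entry, measured 106 to 132 CPM (median 117) in Etv2 +/+, 52.3, 75.3, 74.6, 80.3, and 74.8 CPM in Etv2 enhΔ/Δ, and 22.7, 17.2, 21.0, 14.3, and 46.5 CPM in Etv2 Δ/Δ. The 3 groups did not overlap and stood in the order of labelled Etv2 dose. Myc fell in each comparison among these 3 groups. The difference was −2.33 ± 0.19 (SE) in Etv2 Δ/Δ against Etv2 +/+ (adjusted p = 3.57e-11, limma) and −1.61 ± 0.19 (SE) against Etv2 enhΔ/Δ (adjusted p = 2.61e-07). In Etv2 enhΔ/Δ against Etv2 +/+ it was −0.72 ± 0.18 (SE) (adjusted p = 0.0378, limma). That call was lost with the replicate block, Ftl2-ps state, or the mitochondrial share as a term. It was also lost without the libraries at odds with their labelled sex. Myc did not pass in Etv2 enhΔ/Δ against Etv2 +/Δ. Cdkn1c, the imprinted inhibitor p57 of cyclin-dependent kinases, measured 137 to 222 CPM (median 154) in Etv2 +/+, 274, 348, 426, 354, and 320.2 CPM in Etv2 enhΔ/Δ, and 972, 947, 731, 539.9, and 239 CPM in Etv2 Δ/Δ. Both mutants lay above every Etv2 +/+ library, and Etv2 Δ/Δ replicate 5 lay below all of Etv2 enhΔ/Δ. Cdkn1c rose by 1.86 ± 0.24 (SE) in Etv2 Δ/Δ (adjusted p = 9.22e-07, limma) and by 1.05 ± 0.23 (SE) in Etv2 enhΔ/Δ (adjusted p = 0.0122), and between the mutants the difference was 0.81 ± 0.24 (SE) (adjusted p = 0.0470). Cdc25a, a phosphatase that activates Cdk2, fell in Etv2 Δ/Δ, with a difference of −0.46 ± 0.12 (SE) (adjusted p = 0.00582, limma), from 68.6 to 129 CPM (median 82.0) to 71.0, 67.8, 68.0, 70.8, and 62.3 CPM. Without 1 library, the call of Myc in Etv2 enhΔ/Δ was lost in 10 of 31 cases (Etv2 +/+ replicates 1, 2, 3, 4, and 6, and each Etv2 enhΔ/Δ replicate) and the call of Cdkn1c between the mutants in 22 of 31, and that of Cdkn1c in Etv2 enhΔ/Δ was lost without Etv2 +/+ replicate 2 or Etv2 enhΔ/Δ replicate 3.

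The makeup of the tissue also differed between the genotypes. In Etv2 Δ/Δ against Etv2 +/+, 12 of 12 erythroid markers fell and the median difference was −6.01, with Hba-a1 at 0 in 4 of 5 Etv2 Δ/Δ libraries and Gata1 at 0 in 3. Of 10 endothelial markers, 8 fell, from sums of 326 to 486 CPM to 128 to 181 CPM, with Emcn at 0 in 4 of 5 libraries. Of 8 macrophage markers listed, 5 had values, of which 1 passed as lower and 4 had a difference below 0. Their differences ran from −5.59 to 0.84, with a median of −0.91. The sums of the 5, to which the most abundant markers add most, went from 85.4 to 142 CPM to 4.42 to 9.07 CPM. Their mean log2(CPM + 1) was 1.64 to 2.92 in Etv2 +/+ and 0.67 to 0.89 in Etv2 Δ/Δ. Ptprc and Tyrobp were at 0 in 4 of 5 Etv2 Δ/Δ libraries. Of 12 mesoderm and mesothelium markers, 7 rose, from sums of 941 to 1230 CPM to 1493 to 2813 CPM. In Etv2 enhΔ/Δ, 10 of 12 erythroid markers fell, 0 of 10 endothelial markers fell and 1 rose, and 5 of 12 mesoderm and mesothelium markers rose. The endothelial median there was 0.49, with none of 10 below 0 and sums of 581 to 638 CPM. Of 12 visceral endoderm markers, 2 rose in Etv2 Δ/Δ against Etv2 +/+ (median 0.32, none below 0) and 4 against Etv2 +/Δ (median 0.55), and none passed in Etv2 enhΔ/Δ against Etv2 +/+ (median 0.40, 1 below 0). The part of these shifts in the levels of the 44 members was not tested.

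The promoter motifs were set beside the outcome as a description. Of 7 members that fell in Etv2 Δ/Δ against Etv2 +/+ and had a promoter entry, 5 held an E2F motif (Cdc6, Mcm3, Mcm6, Pola1, and E2f2) and 1 a CHR. Of the 26 others with an entry, 3 held an E2F motif (Mcm5, Mcm7, and Cdk1) and 16 a CHR. All 7 were S phase or entry members, and all 16 G2 and mitosis members with an entry were among the 26. Motif and class therefore cannot be told apart in these counts. The motifs of Mcm3 and E2f2 lie after the start site. Rrm1 and Ccne1 fell without an E2F motif of these letters in the window, and Mcm7 and Cdk1 had one and did not pass. No binding was measured in these samples.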

How the data were processed

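RNA was taken from single E8.5 yolk sacs of separate, genotyped embryos (10 ng each, Trio RNA-seq library kit). Per the study's methods, the authors trimmed reads with fastq-mcf, aligned them with STAR (2.5.2a) to mm9, counted them per gene with featureCounts, and normalized with edgeR. The deposited values used here are log2(CPM + 1), per gene and library, scaled by the authors; whole reads were recovered from them (100% of values within 0.01 reads). The fold change, likelihood ratio, p-value and FDR columns of the authors' comparisons were not used, and 0 other columns of sample values were left out. The authors' model had processing batch as a term; the labels do not give it, so it is not in the fit.

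One limma model (3.58.1, R 4.3.3) with genotype and labelled sex was fitted to 31 libraries and 18477 genes, without a filter (24 residual degrees of freedom), with a moderated test and Benjamini-Hochberg adjustment at 0.05. The scripts were tested on simulated data. The 44 members and the wider lists were chosen with earlier results of these data known. Genes named with values are the 4 of each class with the smallest F test p and the extremes of each class in Etv2 Δ/Δ, then other members that passed, and the 3 of each wider list with the smallest F test p. Coordinates of genes are mm9 (NCBIM37). Promoter sequences are from RefSeq (GRCm38.p6), a different build, and no coordinates were converted. Alternatives were the sex term, samples in the fit, a mean log2 of at least 1, a pseudocount of 0.25, quantile and median-of-ratios scaling, voom, a threshold of 0.01, the replicate number, Ftl2-ps state (10 CPM or more), libraries at odds with their labelled sex, each library left out, and, chosen after seeing the data, the mitochondrial share.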

Additional observations from a re-analysis of the deposited data

Results flagged for a closer look

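In 5 of 162 groups, a library stood apart from the rest of its genotype by its gap to the nearest library, and chance flags about 1 in 20 groups. The mean of the G1 and S entry members was 5.91 in Etv2 +/Δ replicate 2, against 5.75 in the nearest library. Plk1 was low in Etv2 +/Δ replicate 6, at 6.56 on the log2 scale against 6.75 in the nearest library. Espl1 was high in Etv2 +/Δ replicate 3, at 6.25 against 5.88. E2f4 was low in Etv2 enhΔ/enhΔ replicate 5, at 5.91 against 6.54. Myc was low in Etv2 enhΔ/Δ replicate 1, at 5.74 against 6.24. Without that library, as without any other 1 of the Etv2 enhΔ/Δ libraries, the difference of Myc between Etv2 enhΔ/Δ and Etv2 +/+ did not pass.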

How the results depend on the processing

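All 30 calls of named genes kept their direction under every alternative, and 10 also kept their side of the threshold. The count of members that passed in Etv2 Δ/Δ against Etv2 +/+ (10) was 6 with only the 2 groups compared, 4 with Ftl2-ps state as a term, 12 without the sex term, and 9 to 12 with each library left out. For Etv2 enhΔ/Δ against Etv2 +/+ the count (1) was 0 with only the 2 groups, log2(CPM + 0.25), quantile normalization, median-of-ratios scaling, voom, the replicate block, Ftl2-ps state, the mitochondrial share, or a threshold of 0.01, and 0 to 1 with each library left out. Between the mutants (5) it was 2 with only the 2 groups, 3 with the replicate block, without the libraries at odds with their labelled sex, or at a threshold of 0.01, and 3 to 6 with each library left out. Against Etv2 +/Δ (9) it was 12 with only genes of a mean log2 of at least 1, 11 without the sex term, 6 with only the 2 groups, without the libraries at odds with their labelled sex, or at a threshold of 0.01, and 6 to 10 with each library left out. The F test (11) gave 7 at a threshold of 0.01 and 9 to 12 with each library left out. The mitotic median in Etv2 enhΔ/Δ against Etv2 +/+ (−0.03) was 0.016 with Ftl2-ps state, −0.081 with the mitochondrial share, and −0.068 to 0.0014 with each library left out. In Etv2 Δ/Δ it was −0.11 to −0.05, and the S phase median was −0.34 to −0.22. The cause of these moves was not tested. Samples with the same replicate number did not deviate together as a set (median r −0.01 over 71 pairs, against 0.005 over 328 pairs with different numbers). Whether single numbers mark a shared batch was not tested. With the replicate block, 8 members passed in Etv2 Δ/Δ against Etv2 +/+ and 10 the F test. The labels do not give the processing batch of the libraries, so its part in these differences was not tested. Low genes such as E2f2 rest on few reads in the shallowest library (2671612 reads).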
